A study of Mus musculus with 24 samples.

Results

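The 5 genes described here encode the activators and the cryptochrome repressors of the mammalian circadian clock. They are Bmal1 (ENSMUSG00000055116, listed as Arntl in older annotation), Clock (ENSMUSG00000029238), Npas2 (ENSMUSG00000026077), Cry1 (ENSMUSG00000020038) and Cry2 (ENSMUSG00000068742). They were taken by symbol, matched through the Ensembl identifier, from 52350 genes counted in each library, and all 5 were among the 15294 genes that passed the filter on low counts. Their RNA was measured in the hearts of 24 male wild-type C57Bl/6 mice aged 12 weeks, by sequencing of poly-A-selected libraries. All mice were held in 12 h of light and 12 h of darkness, and handling in the dark was under red light. The 4 groups of 6 mice were sedentary or exercised at zeitgeber time 0 (ZT0-SED, ZT0-EX), when the lights come on and mice begin to rest, and sedentary or exercised at zeitgeber time 12 (ZT12-SED, ZT12-EX), when the lights go off and mice become active. The exercised mice ran once on a treadmill after habituation to it, for 60 min at 10 m/min and 0% grade. Libraries 1 to 3 of each group were on flow cell 1 and libraries 4 to 6 on flow cell 2. The sources used here do not give the time between running and collection, or whether sedentary mice were also placed on the treadmill. The comparisons ask how these genes differed between the 2 times of day, and whether a bout of running changed them at either time.

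BMAL1 is a basic helix-loop-helix PAS protein that pairs with CLOCK or with its close relative NPAS2, and the pair binds E-box elements to drive the Period and Cryptochrome genes, the REV-ERB genes and many outputs. PER and CRY proteins return to the nucleus and inhibit that pair, while REV-ERB repressors and ROR activators compete for ROR elements in genes such as Bmal1 and Npas2, which turns those genes on and off daily. The loop runs in heart muscle cells themselves, where BMAL1 is required for daily rhythms of metabolism and excitability.

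Promoter sequences are shown for the pair whose RNA differed most with time of day, Bmal1 and Npas2, and for Cry1, a classical target of the activators whose RNA was called in no comparison (a gene is called where its adjusted p is below 0.05). For Bmal1 the second of 2 annotated starts is shown, the one with a motif match. Each runs from 250 bases before to 50 bases after a transcription start in RefSeq (build GRCm38.p6), 5′ to 3′ on the gene's strand, and all 5 genes had an entry. Capitals mark matches to motifs searched on both strands: the E-box CACGTG, the E-prime box CACGTT, the ROR elements TAGGTCA and TGGGTCA, the D-box TTANGTAA and the CRE TGACGTCA.
Bmal1, chr7:113207261-113207560, + strand: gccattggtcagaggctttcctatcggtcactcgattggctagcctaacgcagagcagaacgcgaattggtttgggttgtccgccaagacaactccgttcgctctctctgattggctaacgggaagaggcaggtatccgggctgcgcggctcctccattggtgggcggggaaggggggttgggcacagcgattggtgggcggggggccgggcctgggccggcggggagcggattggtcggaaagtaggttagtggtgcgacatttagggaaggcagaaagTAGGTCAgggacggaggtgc
Npas2, chr1:39194022-39194321, + strand: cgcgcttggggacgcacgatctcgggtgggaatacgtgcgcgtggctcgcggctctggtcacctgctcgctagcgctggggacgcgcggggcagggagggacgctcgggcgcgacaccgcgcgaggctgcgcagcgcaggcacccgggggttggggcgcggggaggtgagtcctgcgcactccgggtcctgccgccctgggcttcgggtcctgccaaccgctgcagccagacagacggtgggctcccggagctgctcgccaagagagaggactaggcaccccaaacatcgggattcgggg
Cry1, chr10:85185005-85185304, - strand: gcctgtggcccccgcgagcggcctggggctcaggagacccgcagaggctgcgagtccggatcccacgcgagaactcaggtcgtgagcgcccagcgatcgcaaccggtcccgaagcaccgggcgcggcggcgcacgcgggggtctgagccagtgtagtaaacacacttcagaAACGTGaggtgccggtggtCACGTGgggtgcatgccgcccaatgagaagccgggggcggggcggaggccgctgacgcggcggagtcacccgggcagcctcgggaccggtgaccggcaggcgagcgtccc
The Bmal1 window held 1 match to the searched ROR element letters, 30 to 36 bases after this start. Such a TAGGTCA stood in 2.61% of 32851 mouse promoters of the same length. Variants of the ROR element other than TAGGTCA and TGGGTCA were not searched, so this is not a count of all such elements. The Cry1 window held an E-box at -60 to -55 and an E-prime box, read there as AACGTG, at -79 to -74. The E-box stood in 7.15% of promoters and the E-prime box in 4.68%. The Cry2 promoter, not printed, held an E-prime box at -166 to -161. No searched motif was in the Npas2 window or in the 3 annotated Clock windows. A match describes letters, and a missing match says only that they are not in this window.

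Library totals ran from 9697334 to 23067191 counts, and mitochondrially encoded transcripts took 2.70% to 55.1% of them. Relative gene levels followed transcript GC content differently by library, with Spearman correlations across genes from -0.84 to 0.26 on flow cell 1 and from 0.44 to 0.71 on flow cell 2. The lowest values were in ZT12 libraries of flow cell 1. The 5 genes differ in GC content: transcripts of Clock are poor in it (41.5%, the 7.82 percentile of genes tested) and those of Cry2 rich (54.3%, percentile 73.9), with Bmal1 at 48.3%, Cry1 at 50.1% and Npas2 at 53.9%. Fast skeletal muscle transcripts were high in 6 libraries of flow cell 2, namely replicates 4, 5 and 6 of ZT0-EX and replicate 6 of each other group. Leaving these out keeps ZT0-EX on flow cell 1 alone, so within ZT0-EX muscle transcripts and flow cell cannot be told apart. By correlation with the rest of the data set, ZT12-SED 1, ZT12-EX 4 and ZT12-SED 2 were the lowest 3 libraries. The tissue label fits its markers, as 8 cardiomyocyte genes summed to 30362 to 196292 CPM (counts relative to the library total, scaled by TMM) in each library. In heart tissue measured in bulk, fewer cells that express a gene and less RNA per cell cannot be told apart.

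Bmal1, the partner of both other activators, had the smallest p of all genes for time of day in sedentary and in exercised mice. In ZT0-SED its level ran from 19.3 to 29.0 CPM with a median of 23.4, and in ZT12-SED from 0.568 to 2.49 CPM with a median of 1.41. In ZT0-EX it ran from 22.2 to 28.2 CPM with a median of 26.1, and in ZT12-EX from 0.324 to 1.51 CPM with a median of 1.06. Every ZT12 heart was therefore far below every ZT0 heart, whether the mice had run or not, and the ZT12 levels rest on 3 to 31 counts per library. Group means fell 17.4-fold from ZT0 to ZT12 in sedentary mice (24.3 ± 3.81 to 1.40 ± 0.765 CPM, SD, n = 6) and 24.6-fold in exercised mice (25.6 ± 2.15 to 1.04 ± 0.408 CPM). On the log2 scale the difference was -4.21 ± 0.26 (SE) in sedentary mice (adjusted p = 3.77e-10, edgeR's quasi-likelihood test, Benjamini-Hochberg adjusted across 15294 genes). In exercised mice it was -4.60 ± 0.27 (adjusted p = 5.98e-11 by the same test), and Bmal1 ranked 1 of 15294 in both. Flow cell 1 alone gave -4.10 and -4.55 and flow cell 2 alone -4.39 and -4.59, all past the threshold of 0.05.

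Npas2, which can take the place of CLOCK as partner of BMAL1, was low in every heart and followed Bmal1. It stood at 4.04 to 6.53 CPM (median 6.03) in ZT0-SED and at 0.575 to 0.719 CPM (median 0.63) in ZT12-SED. It stood at 5.60 to 7.49 CPM (median 6.51) in ZT0-EX and at 0.534 to 1.27 CPM (median 0.857) in ZT12-EX. The ZT0 and ZT12 hearts again did not overlap, and the ZT12 libraries held 3 to 19 counts of it. Mean level fell 8.92-fold in sedentary mice, a log2 difference of -3.12 ± 0.20 (adjusted p = 4.19e-10, edgeR's quasi-likelihood test with Benjamini-Hochberg adjustment). It fell 7.29-fold in exercised mice, a log2 difference of -2.87 ± 0.19 (adjusted p = 7.22e-10), and ranked 2 of 15294 genes in both comparisons. The flow cells gave -3.34 and -2.91 in sedentary mice and -3.02 and -2.65 in exercised mice.

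These were the members called lower at ZT12, 2 of 5 in each comparison, where 2.74% of all genes tested were called lower in sedentary mice and 0.837% in exercised mice. In sedentary mice 376 genes were called higher and 419 lower, against 69 and 165 with library totals in place of TMM scaling and 310 and 221 with GC offsets for each library. Every ZT12 library lay below every ZT0 library for 0.811% of genes tested in sedentary mice and for 0.719% in exercised mice, and Bmal1 and Npas2 were among them in both. Their calls held under each of 16 other settings and in each of 24 fits that left out a library.

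**Figure D1:**
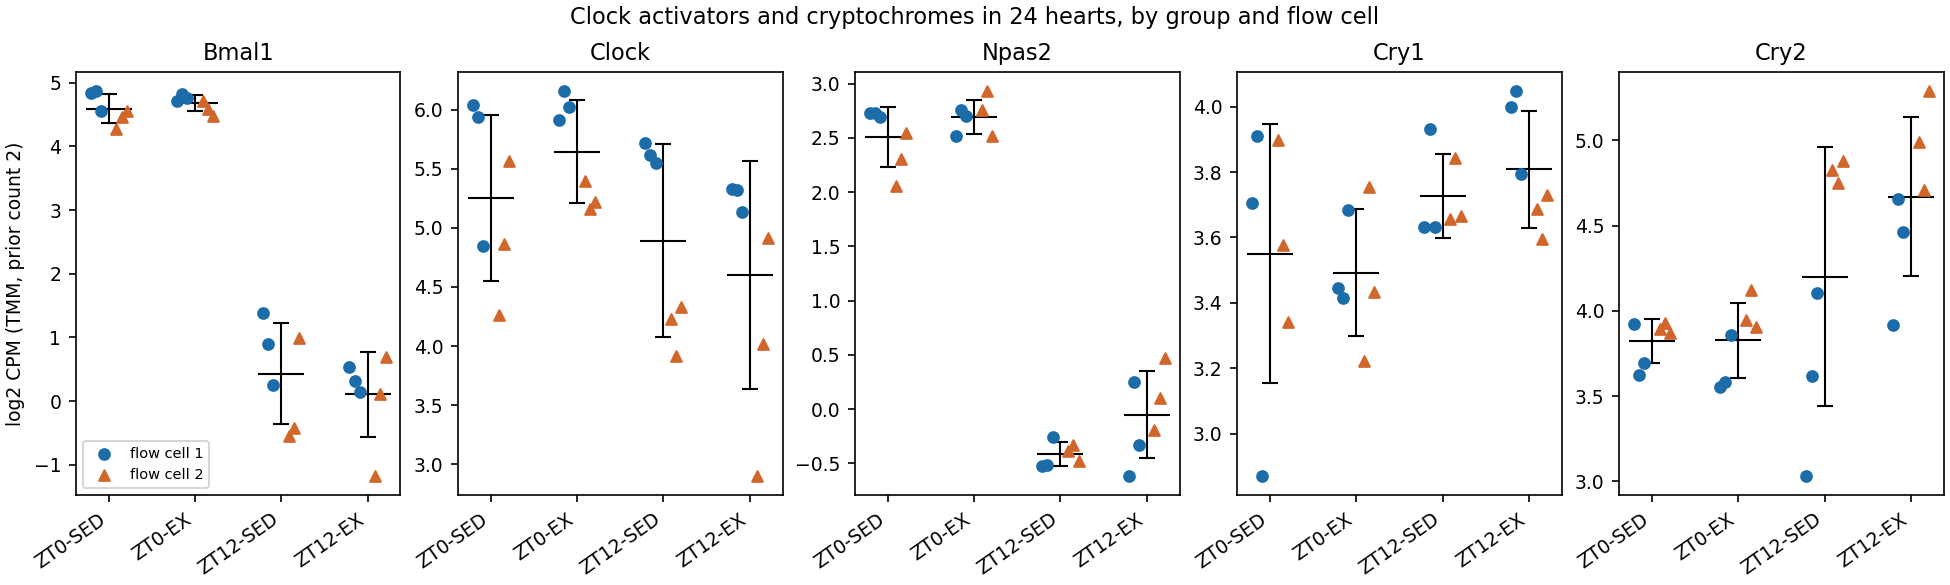
Level of each gene in each of 24 hearts as log2 CPM (TMM scaling, prior count 2), by group on the horizontal axis, with flow cell 1 as circles and flow cell 2 as triangles; black bars are group means ± SD (n = 6), and vertical scales differ between genes. Bmal1 and Npas2 separate ZT0 from ZT12 without overlap, while Clock and Cry2 separate the flow cells within ZT12.

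Clock, the usual partner of BMAL1, was not called for time of day, and it varied more between hearts than Npas2. Its level was 19.1 to 65.5 CPM (median 38.1) in ZT0-SED and 15.0 to 52.4 CPM (median 33.3) in ZT12-SED. It was 35.7 to 71.1 CPM (median 51.0) in ZT0-EX and 7.35 to 40.0 CPM (median 32.5) in ZT12-EX. With both flow cells together all 4 groups overlapped. Flow cell 1 was the higher in each by group mean, most so at ZT12, where its 3 sedentary libraries averaged 49.4 CPM against 17.9 CPM on flow cell 2. Within each flow cell the exercised times did not overlap, with 3 hearts a group. ZT12-EX was at 34.9 to 40.0 CPM against 60.0 to 71.1 in ZT0-EX on flow cell 1, and 7.35 to 30.1 against 35.7 to 41.9 on flow cell 2. The sedentary times overlapped on each flow cell. The share of all genes separated within flow cells was not counted, so this separation does not set Clock apart. In exercised mice Cry2 was also separated by time on both flow cells, and Cry1 on flow cell 1. The ZT12 to ZT0 difference was -0.44 ± 0.26 in sedentary mice (95% interval -0.98 to 0.10, adjusted p = 0.229) and -0.94 ± 0.26 in exercised mice (-1.47 to -0.40, adjusted p = 0.0676), both by edgeR's quasi-likelihood test and neither past the threshold.

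The call on Clock depended on how GC content and single libraries were handled. With an offset for the trend on GC content in each library, the difference was -0.88 in sedentary mice (adjusted p = 0.00194) and -1.10 in exercised mice (adjusted p = 0.000234), past the threshold in both. In exercised mice Clock passed under 7 of 16 other settings, among them DESeq2 (-0.93, adjusted p = 0.0151) and limma-voom (-1.02, adjusted p = 0.0409). It passed there without ZT0-SED 3 (adjusted p = 0.0380), ZT0-SED 6 (0.0418) or ZT12-EX 6 (0.0201), and without the 3 least correlated libraries (-0.77, adjusted p = 0.0416). Flow cell 1 alone gave -0.11 in sedentary mice and -0.77 in exercised mice, and flow cell 2 alone gave -0.84 and -1.05, none past the threshold.

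Among the repressors, Cry1 encodes the stronger inhibitor of the BMAL1 complexes, and it was not called in any comparison. It was 7.20 to 14.9 CPM (median 12.4) in ZT0-SED and 12.3 to 15.1 CPM (median 12.5) in ZT12-SED. It was 9.22 to 13.4 CPM (median 10.7) in ZT0-EX and 12.0 to 16.4 CPM (median 13.5) in ZT12-EX. With both flow cells together all groups overlapped, and the lowest heart, ZT0-SED 3, was the only one under 9 CPM. On flow cell 1, with 3 hearts a group, ZT12-EX was at 13.7 to 16.4 CPM and ZT0-EX at 10.6 to 12.7 CPM. The ZT12 to ZT0 difference was 0.14 ± 0.16 in sedentary mice (95% interval -0.19 to 0.47, adjusted p = 0.534) and 0.31 ± 0.16 in exercised mice (-0.01 to 0.64, adjusted p = 0.369, edgeR's quasi-likelihood test). The flow cells gave 0.14 and 0.09 in sedentary mice and 0.43 and 0.24 in exercised mice.

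Cry2, the paralogue of Cry1, was higher at ZT12 in exercised mice. It stood at 12.2 to 15.1 CPM (median 14.6) in ZT0-SED and at 8.06 to 29.3 CPM (median 21.9) in ZT12-SED. It stood at 11.6 to 17.3 CPM (median 14.6) in ZT0-EX and at 15.0 to 38.9 CPM (median 25.6) in ZT12-EX. The ZT0 hearts all lay between 11.6 and 17.3 CPM, whereas at ZT12 the sedentary hearts averaged 12.4 ± 4.53 CPM on flow cell 1 and 28.1 ± 1.29 CPM on flow cell 2 (SD, n = 3 each). Mean level rose 1.86-fold from ZT0 to ZT12 in exercised mice, a log2 difference of 0.87 ± 0.19 (adjusted p = 0.0156, edgeR's quasi-likelihood test with Benjamini-Hochberg adjustment). In sedentary mice the difference was 0.44 ± 0.19 (95% interval 0.05 to 0.84), which did not pass after adjustment (adjusted p = 0.118). Cry2 was thus the 1 member of 5 called higher at ZT12 in exercised mice, where 0.811% of genes were called higher, and 0 of 5 were in sedentary mice, where 2.46% were. DESeq2 and limma-voom also called 0 of 5 higher there, and at an unadjusted p under 0.05 there was 1, Cry2 itself.

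The Cry2 values stood apart by flow cell. In sedentary mice flow cell 1 alone gave -0.11 and flow cell 2 alone 0.91 (adjusted p = 0.0720), while in exercised mice they gave 0.72 (adjusted p = 0.155) and 1.08 (adjusted p = 0.0407). The GC offsets raised the difference to 0.78 in sedentary mice (adjusted p = 0.000358) and 1.00 in exercised mice (adjusted p = 1.42e-05). The call in exercised mice was lost without the 6 libraries with skeletal muscle transcripts (0.64, adjusted p = 0.301), with library totals in place of TMM scaling (0.80, adjusted p = 0.276) and without a flow cell term (0.89, adjusted p = 0.179). The first of these fits keeps ZT0-EX on flow cell 1 alone, where Cry2 was not called either, so it does not single out muscle transcripts. Leaving out any 1 library kept the call in exercised mice (0.81 to 0.95). Cry2 passed in sedentary mice without the 3 least correlated libraries (0.71, adjusted p = 0.0111). The parts of flow cell, GC content and muscle transcripts in the Cry2 result were not tested beyond these fits.

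**Figure D2:**
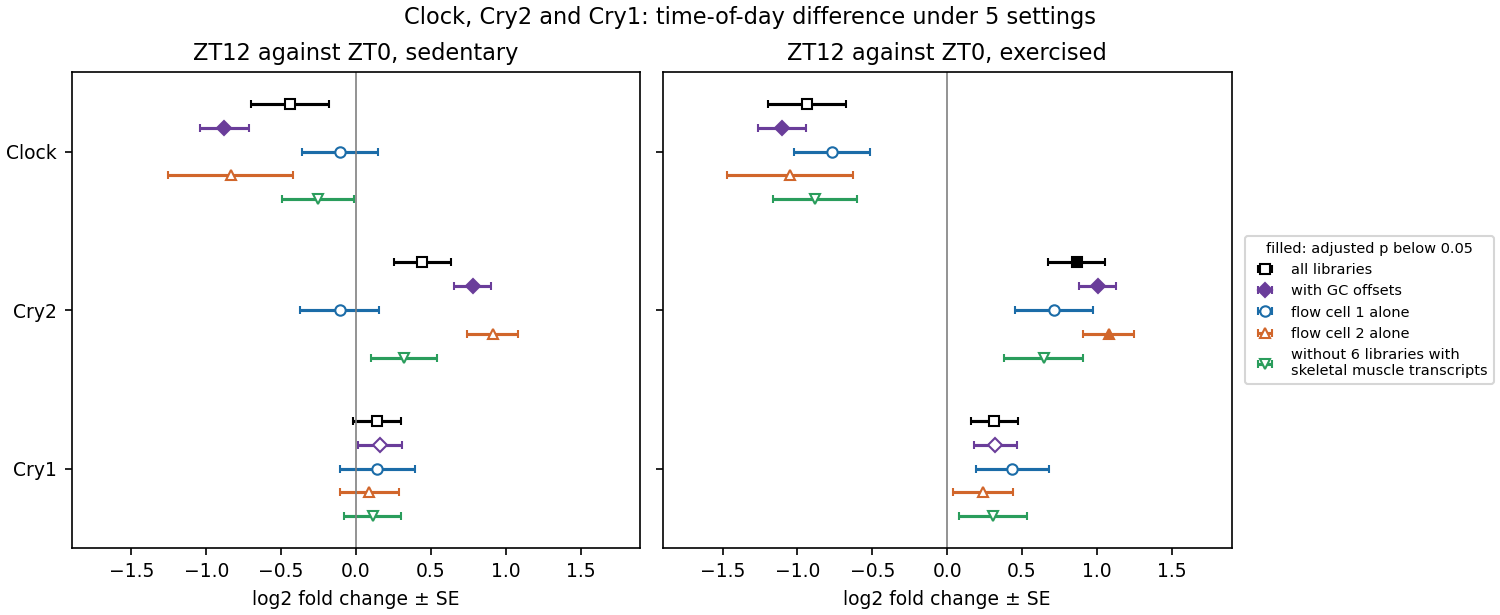
ZT12 against ZT0 log2 fold change ± SE of Clock, Cry2 and Cry1 in sedentary mice (left) and exercised mice (right) under 5 settings, with filled symbols where the adjusted p is below 0.05. The GC offsets (diamonds) move Clock to -0.88 and Cry2 to 0.78 in sedentary mice, flow cell 1 alone (circles) puts both at -0.11 there, and Cry1 stays between 0.09 and 0.43 in all 10 fits.

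Because library-wide scaling cancels within a heart, pairs of members were also compared as differences of log2 CPM in each library, with exact permutation tests, both sides counted, within flow cells (400 arrangements, smallest p 0.005) adjusted over 12 comparisons. Such a difference between genes also contains their lengths, so only its change between groups is read. Npas2 minus Clock went from -2.74 ± 0.50 (SD, n = 6) in ZT0-SED to -5.31 ± 0.86 in ZT12-SED, a change of -2.56 (exact permutation, adjusted p = 0.015), and from -2.95 ± 0.49 in ZT0-EX to -4.66 ± 1.05 in ZT12-EX, a change of -1.71 (exact permutation, adjusted p = 0.015). The alternative partners of BMAL1 were thus unequal in their daily change, Npas2 falling relative to Clock in both sets of mice and on both flow cells (-3.17 and -1.96 in sedentary, -2.12 and -1.29 in exercised mice). A trend on GC content does not cancel between genes that differ in it. With GC offsets the changes were smaller, -1.73 in sedentary and -1.49 in exercised mice (exact permutation, adjusted p = 0.012 for both). Bmal1 minus Clock changed by -3.81 in sedentary and -3.53 in exercised mice (exact permutation, adjusted p = 0.015 for both). Cry1 minus Cry2 changed by -0.20 in sedentary mice (exact permutation, adjusted p = 0.6), with 0.40 on flow cell 1, -0.80 on flow cell 2 and -0.57 with GC offsets (exact permutation, adjusted p = 0.04). It changed by -0.53 in exercised mice (exact permutation, adjusted p = 0.048). The change in exercised mice was -0.25 on the first flow cell and -0.80 on the second, and its adjusted p was 0.187 when labels were permuted over both flow cells. With GC offsets it was -0.66 (exact permutation within flow cells, adjusted p = 0.012).

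**Figure D3:**
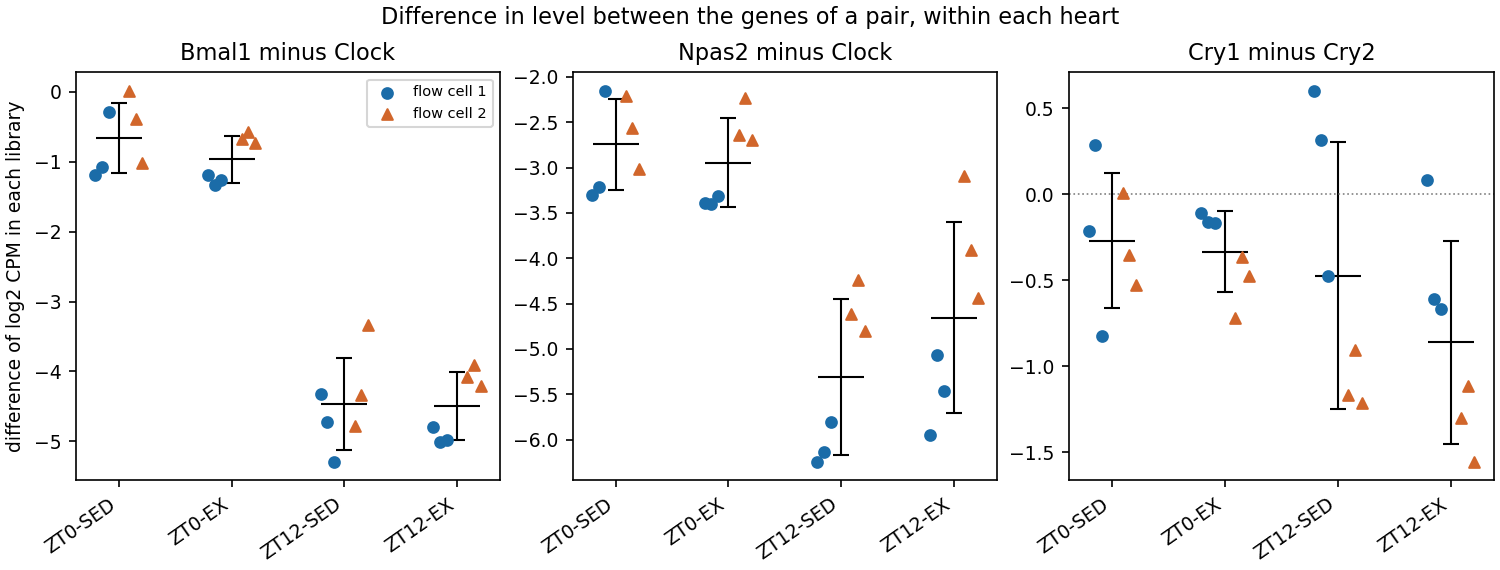
Difference of log2 CPM between the genes of a pair in each of 24 libraries, by group, with circles for flow cell 1, triangles for flow cell 2 and bars for the mean ± SD (n = 6). Bmal1 minus Clock averages -0.66 and -0.96 at ZT0 and is -3.34 or lower in every ZT12 heart, and Cry1 minus Cry2 spreads widest in ZT12-SED, from -1.22 to 0.60.

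None of the 5 genes was called for exercise at ZT0 (0 of 5, where 1.08% of genes tested were called) or at ZT12 (0 of 5, where 0.294% were). At an unadjusted p under 0.05 there were 0 at ZT0 and 1, Cry2, at ZT12, and DESeq2 and limma-voom also called 0. At ZT0 the exercised to sedentary log2 differences were 0.08 ± 0.21 for Bmal1, 0.30 ± 0.26 for Clock, 0.18 ± 0.17 for Npas2, -0.09 ± 0.16 for Cry1 and -0.003 ± 0.19 for Cry2 (adjusted p from 0.642 to 0.997, edgeR's quasi-likelihood test). Their 95% intervals span -0.41 to 0.83 in all. For Clock the interval ended at -0.23 and 0.83, so a rise of that size was not excluded, and for Cry1 it ended at -0.41 and 0.23. At ZT12 the differences were -0.31 ± 0.28 for Bmal1, -0.20 ± 0.26 for Clock, 0.43 ± 0.22 for Npas2, 0.08 ± 0.16 for Cry1 and 0.42 ± 0.19 for Cry2 (adjusted p from 0.288 to 0.791). Cry2 came nearest, with an interval of 0.03 to 0.81 and an adjusted p of 0.288, and its difference was 0.74 in flow cell 1 and 0.23 in the other. Over the 5 genes, the ZT0 differences ran from -0.09 to 0.33 in flow cell 1 and from -0.18 to 0.40 in the other, and the ZT12 differences from -0.45 to 0.74 and from -0.08 to 0.66. The Npas2 interval, -0.03 to 0.89, rests on means of 0.634 CPM in ZT12-SED and 0.877 CPM in ZT12-EX. Npas2 minus Clock was 0.65 higher in exercised hearts at ZT12 (exact permutation, adjusted p = 0.05, not below the threshold), and with GC offsets this was 0.02.

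The exercise effect was not shown to differ between the times of day for any of the 5. The interaction, the ZT12 effect minus the ZT0 effect, was -0.39 ± 0.35 for Bmal1, -0.50 ± 0.37 for Clock, 0.25 ± 0.28 for Npas2, 0.17 ± 0.22 for Cry1 and 0.42 ± 0.27 for Cry2 (adjusted p from 0.581 to 0.747, edgeR's quasi-likelihood test). The same term is the exercised minus the sedentary time-of-day difference, so the calls on Cry2 in exercised but not in sedentary mice do not show that the rise differed between them. In this comparison 0 genes were called (0% of those tested), 1226 had an unadjusted p under 0.05, DESeq2 called 5 genes and limma-voom 0.

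**Figure D4:**
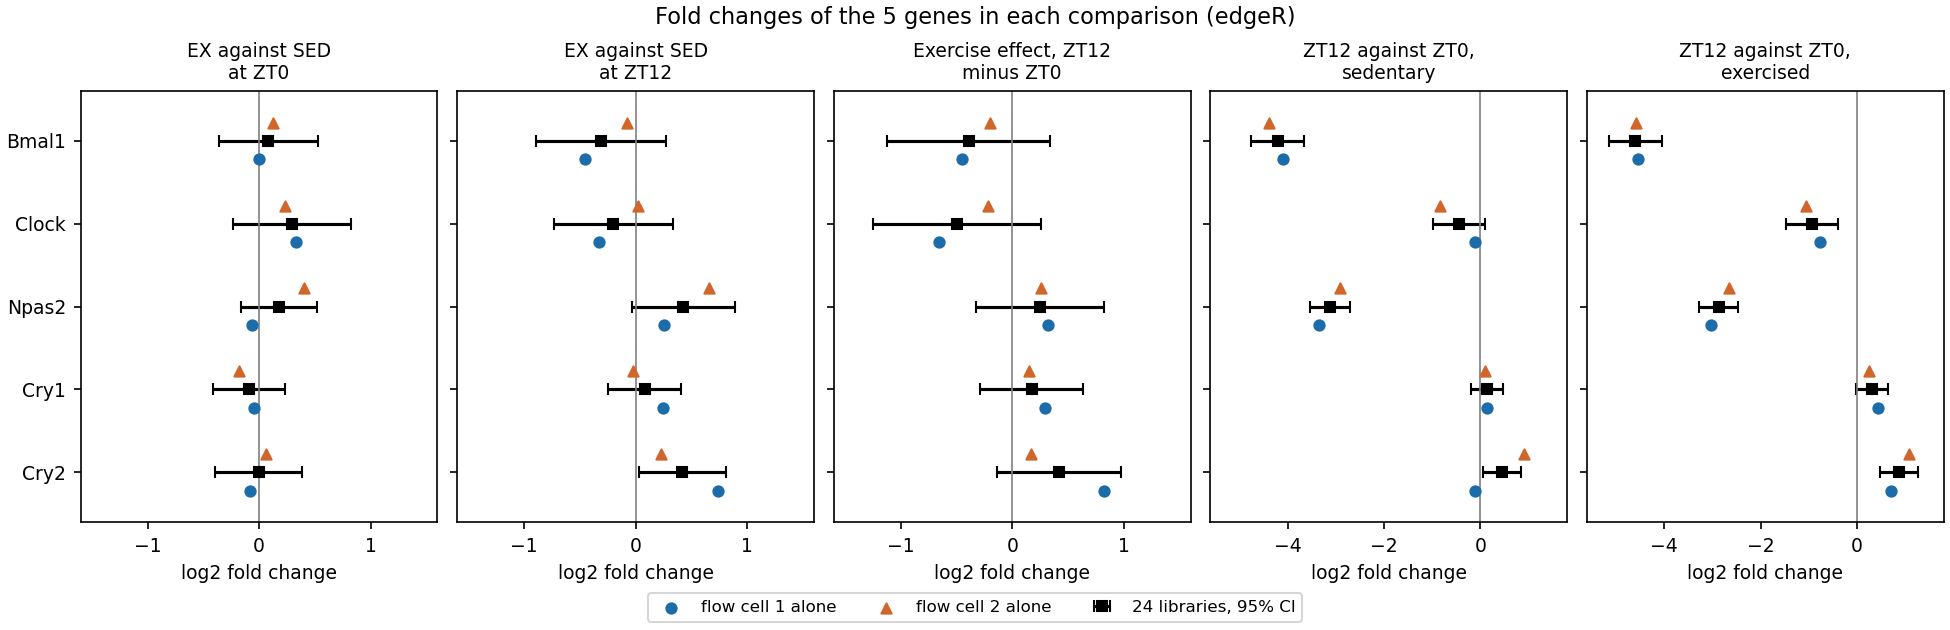
Log2 fold change of the 5 genes in the 5 comparisons, with squares and 95% intervals from all 24 libraries, circles from flow cell 1 alone and triangles from flow cell 2 alone; the last 2 panels have a wider axis. Exercise estimates from all 24 libraries (squares) lie between -0.31 and 0.43 at either time, against -4.60 to 0.87 for time of day, and the single flow cells reach from -0.45 to 0.74 for exercise.

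Set side by side per kilobase of merged exons, the genes ran in a different order at each time. At ZT0 in sedentary hearts Cry1 (3.58 ± 0.89 CPM per kb, SD, n = 6), Bmal1 (3.23 ± 0.51) and Clock (3.04 ± 1.39) were within their spread of each other. Cry2 followed at 2.23 ± 0.20, within the spread of Clock, and Npas2 was lowest at 1.18 ± 0.21. At ZT12 in sedentary hearts Cry1 (3.94 ± 0.37), Cry2 (3.21 ± 1.44) and Clock (2.45 ± 1.27) were within 1 SD of the next, and Bmal1 (0.186 ± 0.102) and Npas2 (0.132 ± 0.012) lay below them and within their spread of each other. The order of Cry2 and Clock there turned with flow cell, at 1.97 and 3.60 on flow cell 1 and 4.45 and 1.30 on flow cell 2. These levels carry no GC offset. The exercised hearts had Clock (3.77 ± 1.12), Bmal1 (3.40 ± 0.29) and Cry1 (3.36 ± 0.46) on top at ZT0, and Cry1 (4.19 ± 0.53) and Cry2 (4.18 ± 1.30) at ZT12. Per length, Bmal1 was thus within the spread of its partner Clock at ZT0 and below every Clock level at ZT12.

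Spread between hearts also set the genes apart. After group and flow cell were taken out, the SD of log2 CPM was 0.25 for Cry1 and 0.27 for Npas2, the 10.9 and 13.9 percentiles of all genes, 0.34 for Cry2, and 0.49 for both Bmal1 and Clock, against a median of 0.44. For Bmal1 it was uneven, with a root mean square deviation of 0.15 at ZT0 and 0.59 at ZT12. Counts at ZT12 were few for Bmal1 and also for Npas2, which deviated by 0.21 at ZT0 and 0.27 at ZT12. A link between spread and counts was not tested. Clock deviated by 0.42 and 0.46.

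The genes whose pattern over the 24 libraries was most like each member were found by Pearson correlation of log2 CPM after centring each flow cell, among genes averaging 1 or more on the log2 CPM scale. These values describe libraries that share group, depth and GC trend. Bmal1 lay closest to Ckap4 (r = 0.96), its fellow activator Npas2 (0.96), Leo1 (0.95), Slc41a3 (0.94) and Lingo3 (0.93), and was most opposite to Dbp (-0.97), Tef (-0.97) and Ciart (-0.95). Dbp and Tef encode PAR bZIP factors that bind D-boxes, and Ciart encodes a repressor of the activators. Npas2 lay closest to Slc41a3 (0.98), Bmal1, Leo1 (0.96), Col5a3 (0.96) and Ckap4 (0.96), opposite to Per3 (-0.94), Hlf (-0.93) and Tef (-0.93). Clock had other neighbours, Epha4 (0.92), Pip5k1b (0.92), Stk24 (0.92), Rasgrp3 (0.92) and E2f3 (0.91), and was opposite to Gstt2 (-0.88), Cys1 (-0.86) and Inmt (-0.85). All but Stk24 of those 5 lie below the median in GC content, between 44.8% and 49.2%, and the opposite 3 lie above it, at 52.5% to 59.5%. Cry2 was nearest to Slc44a2 (0.88), Podn (0.86), Wipf3 (0.85), Tspan4 (0.83) and Slc1a5 (0.82), all above the median GC content, and opposite to Rras2 (-0.87), Abhd17c (-0.86) and the chaperone gene Hspa5 (-0.84). Cry1 had no close neighbour, the first being R3hcc1l (0.70), followed by the macrophage genes Cd163 (0.66) and Tlr7 (0.66). Its 5 most alike genes lie below the median GC content, at 41.0% to 47.0%, and the 3 most opposite above it, at 54.7% to 63.1%. Between members, Bmal1 and Clock correlated at 0.70 and Cry1 and Cry2 at 0.38.

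Most of the genes listed as driven by the activators were higher at ZT12, where Bmal1 and Npas2 were lower. Of 13 E-box targets and feedback genes, 11 were higher and 0 lower at ZT12 in sedentary mice (median log2 difference 2.03, against -0.01 over all genes tested), where 2.46% of all genes were called higher. In exercised mice 9 of 13 were higher and 0 lower (median 1.54, against 0.02), where 0.811% of all genes were called higher. In sedentary mice Per2 rose by 3.42 ± 0.25, Per3 by 3.03 ± 0.21, Nr1d2 by 2.57 ± 0.29, Dbp by 2.48 ± 0.29, Per1 by 2.22 ± 0.38, Ciart by 2.09 ± 0.21, Hlf by 2.03 ± 0.20 and Tef by 1.61 ± 0.15. Nr1d1, which encodes REV-ERBα, had differences of -0.10 and -0.15 in sedentary and exercised mice and was not called, nor was Bhlhe40 (0.49 and 0.10). These genes were uneven between the sedentary ZT12 hearts, where Nr1d1 ran from 2.69 to 35.3 CPM and Per1 from 1.53 to 68.7 CPM, both lowest in ZT12-SED 1, the library least correlated with the rest. In sedentary mice flow cell 1 alone put Nr1d1 at -1.12 (adjusted p = 0.0168, edgeR's quasi-likelihood test, past the threshold) and flow cell 2 alone at 0.68, not called, and the GC offsets gave 0.37 there and 0.10 in exercised mice, neither called. Per1 in sedentary mice was at 1.05 (adjusted p = 0.0684) and 2.99 (adjusted p = 0.00054) on the flow cells and at 2.76 with GC offsets. In exercised mice Per1 showed -0.01 ± 0.35 (0.36 with GC offsets) and was not called in either fit, whereas Dbp (2.84), Per3 (2.53), Per2 (2.21), Ciart (2.01), Tef (1.66) and Hlf (1.64) rose. Of the 8 genes of the ROR element arm, which acts back on Bmal1 and Npas2, 7 were tested (Rorb was too low). Nr1d2 and Rora (0.94 ± 0.23) were higher and Nfil3, a repressor at D-boxes, was lower (-1.79 ± 0.22) at ZT12 in sedentary mice, and in exercised mice Nr1d2 (1.54) was higher and Nfil3 (-1.71) lower, with list medians of -0.06 and -0.14. Nfil3 was the only gene in these 2 lists that was called in the same direction as Bmal1 and Npas2.

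**Figure D5:**
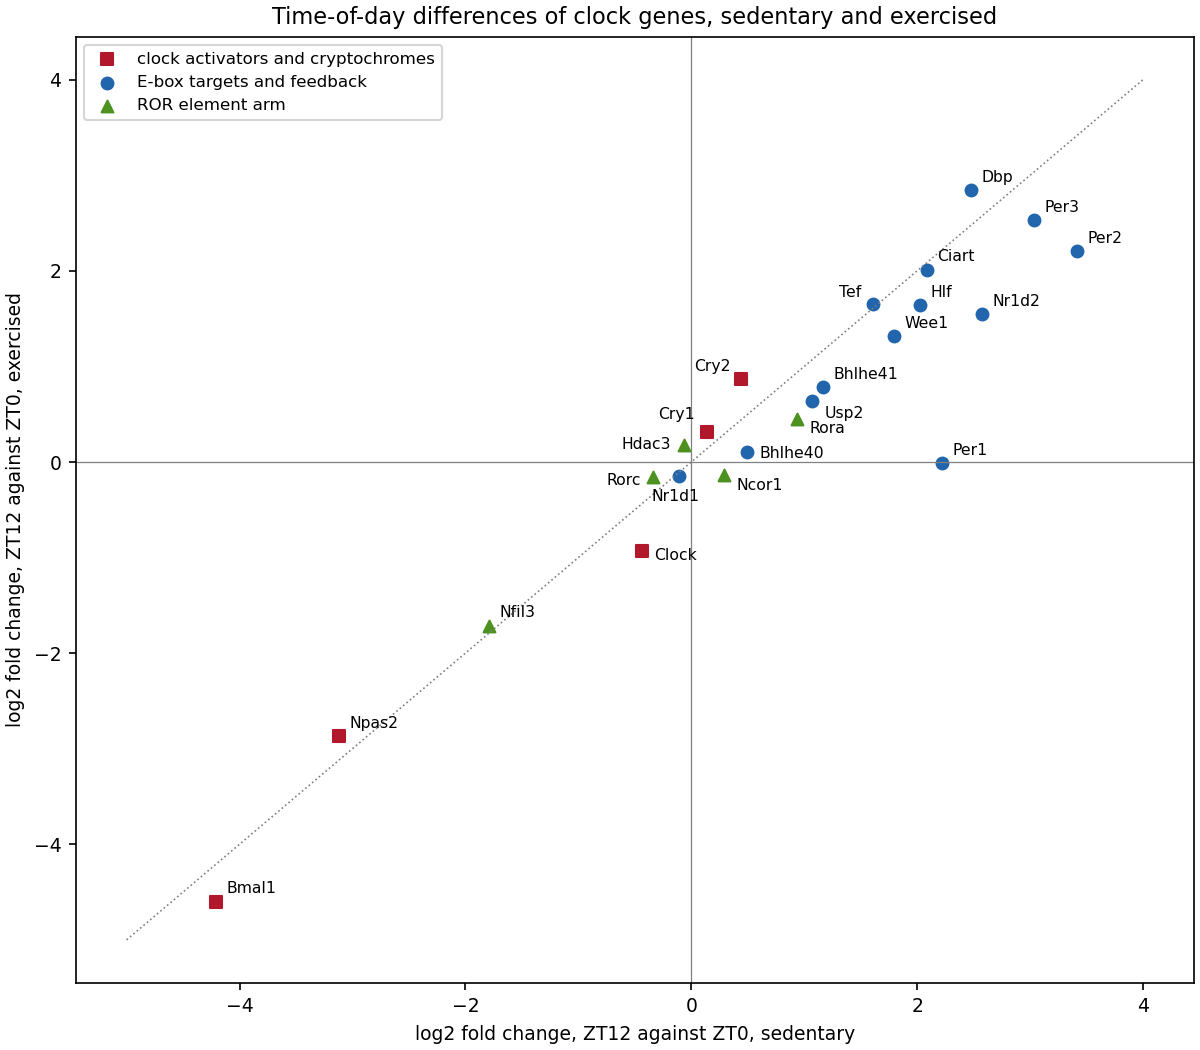
ZT12 against ZT0 log2 fold change in sedentary mice (horizontal) and exercised mice (vertical) for the 5 genes (squares), their E-box targets and feedback genes (circles) and the ROR element arm (triangles), with a dotted line where both are equal. Bmal1, Npas2 and Nfil3 sit at lower left, most targets at upper right, Cry1, Cry2 and Clock near the centre, and Per1 at 2.22 in sedentary and -0.01 in exercised mice.

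Exercise called 3 of the 13 targets higher and 0 lower at ZT0, where 0.791% of all genes were called higher, while no activator or cryptochrome was called. Per1 differed by 3.08 ± 0.39, from 5.09 ± 2.47 to 39.6 ± 10.5 CPM (SD, n = 6), Per2 by 1.71 ± 0.23, from 3.21 ± 0.78 to 10.6 ± 2.09 CPM, and Bhlhe40, a repressor that competes for E-boxes, by 0.93 ± 0.23 (adjusted p = 6.19e-05, 0.000126 and 0.0479, edgeR's quasi-likelihood test). The list median was 0.30, against -0.01 over all genes tested. Fast skeletal muscle transcripts moved with this comparison, as their 12 markers summed to a median of 528 CPM (83.5 to 3105) in ZT0-EX and 115 CPM (82.9 to 789) in ZT0-SED. Without the 6 libraries that hold them, the calls on Per1 (3.55) and Per2 (1.52) held, with adjusted p of 0.000493 and 0.0213, while Bhlhe40 was at 1.04 and no longer called (adjusted p = 0.293). That fit keeps ZT0-EX on flow cell 1 alone. At ZT12 exercise called 0 of 13 by edgeR (4 at an unadjusted p under 0.05, median 0.19, against 0.06), where Per1 differed from sedentary mice by 0.84 ± 0.36 and Per2 by 0.51 ± 0.22, neither past the threshold (adjusted p of 0.273 and 0.275). The interaction called neither (adjusted p = 0.506 for Per1 and 0.571 for Per2), so in that fit the Period response was not shown to differ between the times. With GC offsets the interaction called Per1 (-2.40 ± 0.32, adjusted p = 0.00173) and not Per2 (-1.49, adjusted p = 0.547).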

How the data were processed

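Hearts of 24 mice were profiled by RNA sequencing. The deposited values are whole-number counts per Ensembl gene, not normalized. Per the submitters' processing notes, Trimmomatic 0.39, HISAT2 2.2.1 and featureCounts 2.0.1 were used with genome build GRCm39. The sources used here do not give their settings, the annotation release, strand use or the handling of shared reads, so reads of overlapping antisense genes cannot be told apart. Symbols, exon lengths and GC content came from a GRCm38 annotation by Ensembl identifier. There were 257 with no symbol, holding 0.00128% of counts. Within groups, all 60 library pairs differed beyond sampling noise (chi-square per degree of freedom of 14.6 or more). The labels name separate biological replicates.

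Counts were tested with edgeR 4.0.16 (R 4.3.3): filterByExpr, TMM scaling and a robust quasi-likelihood fit of group and flow cell to all 24 libraries (19 residual degrees of freedom), with Benjamini-Hochberg adjustment over 15294 genes and a threshold of 0.05. A gene past it is "called". CPM values are TMM scaled, and 3 counts equal 0.130 to 0.575 CPM by library, which limits Bmal1 and Npas2 at ZT12. edgeR keeps p at or above its Poisson value, so the interval of the low-count Npas2 is narrower than its p. GC offsets were loess trends (span 0.3) of log2 CPM on GC content per library, centred over libraries. Other alternatives used DESeq2 1.42.0, limma 3.58.1 (voom), other scaling and filters, each flow cell, and left-out libraries. Exact permutation tests used numpy 2.4.6. Both steps were tested on simulated data. The exercise comparisons share groups with the time-of-day comparisons.

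The 5 genes and all lists were chosen with earlier results of these data known. Named genes were all 5 members, up to 6 genes per list and comparison with the smallest p among those called, with Per1, Per2, Nr1d1, Nr1d2 and Dbp always, and the 5 most alike and 3 most opposite genes of each member, skipping predicted gene models.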

Additional observations from a re-analysis of the deposited data

Results flagged for a closer look

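Bmal1 in ZT12-EX had 1 library apart from the others. ZT12-EX 4 stood at 0.324 CPM, from 3 counts, and the nearest of the other 5 at 0.957 CPM. The gap was 0.682 of the group's whole range, above Dixon's 95% critical value for 6 samples. ZT12-EX 4 is also among the 3 libraries least correlated with the rest. In all, 32 sets of values were tested this way, and chance flags about 1 in 20. The exercised ZT12 to ZT0 difference of Bmal1 remained past the threshold in each of 24 fits that left out a library, between -4.75 and -4.47.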

How the results depend on the processing

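The calls on Bmal1 and Npas2 in both time-of-day comparisons held in all settings run, and no setting called a member for exercise or interaction. With GC offsets, alone or with the replicate block, 4 members were called in sedentary mice instead of 2, adding Clock and Cry2. Same-numbered libraries had a median correlation of deviations of -0.06 over 36 pairs, against -0.09 over 72 other pairs on the same flow cell. Of 24 libraries, 10 were closest to their own number. Whether replicate numbers pair the hearts was not tested, and the reported fit does not treat them as pairs. The fit with a replicate block moved Clock in exercised mice to -1.02 (adjusted p = 0.0324, edgeR) and changed no other member's call. Library totals without TMM shifted the median of all genes by -0.18 in sedentary mice, 0.20 for exercise at ZT12 and 0.12 for the interaction. Over all settings, genes called ranged from 35 to 6552 in sedentary mice (795 as reported), 17 to 1017 in exercised mice (252), 13 to 413 for exercise at ZT0 (165), 4 to 221 at ZT12 (45) and 0 to 5 for the interaction (0), with the lowest on flow cell 2 alone in each but the interaction.

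Signs changed only for members that were not called in the reported fit of that comparison. For exercise at ZT0 these were Bmal1 on flow cell 1 (-0.00124) and without muscle libraries (-0.141), Npas2 on flow cell 1 (-0.0593), and Cry2 without TMM (0.0303), with limma-voom (0.00572), without a flow cell term (0.0139), on flow cell 2 (0.0601), without muscle libraries (0.0754), without the 3 least correlated libraries (6.16e-05) and over left-out libraries (-0.0820 to 0.0867). For exercise at ZT12 they were Bmal1 without the 3 least correlated libraries (0.0937), Clock without TMM (0.0485), on flow cell 2 (0.0231), with GC offsets (0.102), with GC offsets and block (0.0749) and without the 3 least correlated libraries (0.140), and Cry1 on flow cell 2 (-0.0252). The others were the Bmal1 interaction without the 3 least correlated libraries (0.0168), and in sedentary mice Cry1 without TMM (-0.0374) and Cry2 on flow cell 1 (-0.110). Cry2 in sedentary mice was nonetheless called under 3 of 16 other settings, among them the GC offsets.

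Of the pair differences, Npas2 minus Clock in sedentary mice was -3.17 and -1.96 on flow cells 1 and 2 and -2.72 without muscle libraries (exact permutation, adjusted p = 0.1), and for exercise at ZT12 0.690 with a prior count of 0.5 (exact permutation, adjusted p = 0.04). Cry1 minus Cry2 in sedentary mice was 0.399 and -0.804 on flow cells 1 and 2 and -0.573 with GC offsets (exact permutation, adjusted p = 0.04). In exercised mice it was -0.251 and -0.805 on flow cells 1 and 2, -0.528 with labels permuted over both (exact permutation, adjusted p = 0.187) and -0.251 without muscle libraries. Bmal1 minus Clock without muscle libraries was 0.138 for exercise at ZT12, -4.11 in sedentary mice (exact permutation, adjusted p = 0.1) and -3.66 in exercised mice, where the flow cells gave -3.66 and -3.41. A single flow cell, with 3 hearts a group, cannot give p under 0.1, and fewer libraries raise the smallest p. Leaving out muscle libraries keeps ZT0-EX on flow cell 1 alone. Pair values for exercise at ZT0 and in exercised mice then repeat those of flow cell 1 and are not a separate check. The cause of the other changes was not tested.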

Other observations

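Among relatives of the activators, 11 of 16 other genes of the bHLH-PAS family, the structural family of BMAL1, CLOCK and NPAS2, passed the filter on low counts, and Npas1, Npas3, Npas4, Sim1 and Sim2 did not. Hif3a, which encodes a hypoxia-inducible factor subunit, was the 1 gene of these 11 called in any comparison. The shares of all genes called higher were 0.791% for exercise at ZT0, and 2.46% and 0.811% for time of day in sedentary and exercised mice. It averaged 0.384 ± 0.182 CPM (SD, n = 6) in ZT0-SED, 1.69 ± 0.98 CPM in ZT0-EX, 2.30 ± 0.861 CPM in ZT12-SED and 4.57 ± 1.6 CPM in ZT12-EX. It was higher with exercise at ZT0 (2.07 ± 0.39 on the log2 scale, adjusted p = 0.00565) and at ZT12 against ZT0 in sedentary mice (2.70 ± 0.39, adjusted p = 0.000146) and in exercised mice (1.49 ± 0.33, adjusted p = 0.0156), all by edgeR's quasi-likelihood test. Without the libraries with skeletal muscle transcripts the first 2 calls held (2.67 and 2.60) and the call in exercised mice was lost (0.96, adjusted p = 0.281). That fit keeps ZT0-EX on flow cell 1 alone. Bmal2, the paralogue of Bmal1, was not called at either time (0.24 ± 0.22 in sedentary and 0.03 ± 0.22 in exercised mice). Arnt, the general partner of the family, and Hif1a and Epas1 were not called either. The family's median difference between times was 0.41 in sedentary and -0.03 in exercised mice, against -0.01 and 0.02 over all genes tested.

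Of 22 genes whose products modify, degrade or assist the clock proteins, 21 were tested (Fbxl21 was too low). In sedentary mice Cipc, an inhibitor of CLOCK, was higher at ZT12 (0.84 ± 0.21, adjusted p = 0.0223, edgeR's quasi-likelihood test) and Timeless was lower (-0.64 ± 0.19, adjusted p = 0.0477), and the list median was 0.44, against -0.01 over all genes tested. These are 1 of 21 in each direction, where 2.46% of all genes were called higher and 2.74% lower, so counts this small do not set the list apart. With GC offsets Cipc was at 1.03 (adjusted p = 0.00979) and Timeless at -0.24 (adjusted p = 0.452). No regulator was called in exercised mice (median 0.05), for exercise at ZT0 (0.27) or at ZT12 (-0.08), or for the interaction (-0.37).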
